A study of Mus musculus with 73 samples.

Results

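The 44 genes described here encode the DNA replication machinery of the mouse, from the complex that marks replication origins to the enzymes that supply nucleotides. They were taken as a list of gene symbols and grouped into 13 subcomplexes. All 44 were found among the 25220 gene symbols measured by RNA-seq. Each had at least 1 FPKM (a level per kilobase of gene, relative to all fragments counted in a library) in every library, and 43 had at least 5 FPKM in every library, the exception being Gins2. All 44 therefore passed the filter on low values in every comparison.

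The study follows histone H3.3 through early mouse development, and its RNA-seq libraries include embryos with a dominant negative form of p150, the large subunit of the chromatin assembly factor CAF-1 encoded by Chaf1a. Of 73 samples, the 8 RNA-seq libraries were used. They came from embryos of a C57BL/6 and C3H hybrid cultured in KSOM, an embryo medium. The groups were 3 libraries of 8-cell embryos labelled EGFP (a green fluorescent protein, the control), 3 of 8-cell embryos labelled p150DN (the dominant negative p150), and 2 of blastocysts labelled EGFP. No p150DN blastocyst library was used. The labels describe injection of EGFP or EGFP-p150DN mRNA into the cytoplasm at the 1-cell stage, but they do so for 2-cell embryos used in ChIP-seq. For the RNA-seq embryos they give the stage and the name EGFP or p150DN only, with no hour of collection and no number of embryos per library. They do not say whether replicates came from separate litters or cultures, so every p-value here rests on the scatter of these libraries alone, which may be technical scatter.

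Libraries held 16578221 to 22488477 counted fragments, and a member rested on 34 (Gins2) to 17201 (Rrm2) fragments in a library. As a check of the labels, Chaf1a stood at 27.7, 30.2 and 28.8 FPKM in EGFP 8-cell embryos, at 165, 254 and 238 FPKM in p150DN 8-cell embryos and at 26.5 and 27.2 FPKM in blastocysts. The 3 p150DN libraries were thus far above the other 5. All 5 markers of the preimplantation embryo were present, with summed levels of 2618 to 3462 FPKM. None of 9 cumulus cell and none of 5 blood markers reached 1 FPKM in any library, and 1 of 6 sperm and 1 of 5 fibroblast markers did. Trophectoderm markers (4 of 5 at or above 1 FPKM in some library) summed to 19.996 to 26.6 FPKM in EGFP 8-cell embryos, 250 to 452 FPKM in p150DN 8-cell embryos and 1008 to 1080 FPKM in blastocysts. Inner cell mass markers (4 of 4) summed to 55.4 to 68.0, 91.8 to 153 and 278 to 294 FPKM in the same order. Among these, Nanog was at 228 and 239 FPKM and Sox2 at 9.66 and 17.9 FPKM in blastocysts. In EGFP 8-cell embryos they were at 21.1 to 26.7 and 0.06 to 0.27 FPKM. Klf4 and Fgf4 overlapped between these groups. Primitive endoderm markers (4 of 4) summed to 117 to 177, 102 to 146 and 143 to 151 FPKM in the same group order, with overlap. Gata6 was the largest part of that sum in every library, and the other markers moved in opposite directions. Gata4 stood at 39.6 to 54.9, 5.89 to 10.04 and 0.71 to 0.72 FPKM in that order, without overlap. Sox17 (1.44 and 1.31 FPKM) and Pdgfra (6.81 and 3.39 FPKM) were higher in blastocysts. In EGFP 8-cell embryos they reached at most 0.08 and 2.24 FPKM. The part of these cell type markers in the differences below was not tested. Genes above 0 numbered 20465 and 21282 in p150DN replicates 2 and 3, against 17310 to 18991 in the other 6 libraries.

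Replication begins when the origin recognition complex, with Cdc6 and Cdt1, loads the ring-shaped Mcm2 to Mcm7 helicase onto DNA. In S phase Cdc45, the GINS complex and Mcm10 turn that ring into an active helicase, polymerase alpha with primase starts each new strand, polymerases epsilon and delta extend it on the PCNA clamp placed by the Rfc clamp loader, RPA covers exposed single strands, and Fen1 and Lig1 join the lagging-strand pieces. CAF-1 binds PCNA and deposits new histones H3 and H4 behind the fork. Early embryos pass through S phase before each division, using transcripts first stored by the egg and later made by the embryo.

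Many genes of this machinery are textbook targets of E2F transcription factors, and promoter sequences are shown here because such sites can be read directly from the DNA. RefSeq promoter windows (assembly GRCm38.p6, 250 bases before to 50 bases after each gene's start) were available for 37 of the 44 genes. Windows were searched on both strands for 4 spellings of the E2F site: TTCCCGC (as in Rrm1 below), next TTCGCGC (as in Rfc3), then TTGGCGC (as in Rpa3) and last the spelling TTGCCGC (not among the examples). A match was present for 23 of 37 members (62.2%), against 2936 of all 27025 genes with a window (10.9%). Counted by window and not by gene, 25 of 45 member windows (55.6%) held a match. The member windows had a median GC content of 60%, and among all windows within 5 percentage points of it 14.1% held a match. CCAAT, the motif bound by NF-Y, was present on either strand for 24 of 37 members (64.9%), against 41.1% of all genes. By window the shares were 57.8% for members and 37.8% among windows of similar GC content. A match is a run of letters and was not tested as a binding site. In the 5 examples below, each the 150 bases just before the gene's start written 5′ to 3′ on the gene's strand, capitals mark E2F-type matches. They were chosen to show 3 of the 4 spellings and members of the helicase, its activator, the clamp loader, RPA and nucleotide supply.
Mcm6, chr1:128359706-128359855, minus strand: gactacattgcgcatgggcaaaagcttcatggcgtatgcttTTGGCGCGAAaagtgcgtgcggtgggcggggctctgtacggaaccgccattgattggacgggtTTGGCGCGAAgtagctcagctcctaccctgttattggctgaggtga
Gins3, chr8:95633409-95633558, plus strand: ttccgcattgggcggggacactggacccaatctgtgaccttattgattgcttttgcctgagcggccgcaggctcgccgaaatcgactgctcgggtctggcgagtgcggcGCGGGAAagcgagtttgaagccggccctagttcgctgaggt
Rfc3, chr5:151651209-151651358, minus strand: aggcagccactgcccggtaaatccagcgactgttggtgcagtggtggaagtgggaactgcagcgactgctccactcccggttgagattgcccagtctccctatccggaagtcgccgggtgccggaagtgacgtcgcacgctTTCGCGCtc
Rrm1, chr7:102441545-102441694, plus strand: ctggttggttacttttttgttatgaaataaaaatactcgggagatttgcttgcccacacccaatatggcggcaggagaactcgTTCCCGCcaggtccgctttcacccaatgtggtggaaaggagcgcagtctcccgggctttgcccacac
Rpa3, chr6:8259142-8259291, minus strand: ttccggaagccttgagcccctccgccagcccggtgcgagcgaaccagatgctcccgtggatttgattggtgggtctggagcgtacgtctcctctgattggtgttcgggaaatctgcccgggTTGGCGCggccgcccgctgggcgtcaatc
Mcm6 carries a pair of runs in which a match on one strand overlaps a match on the other, while the other 4 stretches each hold 1 match. Among the 5, Rfc3 rose and Mcm6 fell in p150DN 8-cell embryos, and Rfc3, Rrm1 and Rpa3 were higher and Mcm6 and Gins3 lower in blastocysts, as detailed below. Over all members with a window, a match was present in 6 of the 9 that were higher, 4 of the 6 that were lower and 13 of the 22 that did not pass in p150DN 8-cell embryos. The counts between blastocysts and 8-cell embryos were 14 of 20 higher, 7 of 9 lower and 2 of 8 not passing.

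The transcripts differed widely in level, also within a complex. In EGFP 8-cell embryos the median member stood at 30.0, 30.0 and 34.6 FPKM in the 3 libraries. Rrm2, the small subunit of ribonucleotide reductase, was the most abundant in every library of the study, and Cdt1 was next by mean level in both 8-cell groups. Gins2 was lowest by mean level in all 3 groups, at 1.62 to 1.94 FPKM in EGFP 8-cell embryos. The ratio of the highest to the lowest member was 88.6 to 163 in EGFP 8-cell, 44.4 to 58.5 in p150DN 8-cell and 27.2 to 27.9 in blastocyst libraries, so the 3 groups did not overlap in this ratio. It was Rrm2 over Gins2 in every library but blastocyst replicate 2, where Orc3 was lowest. The ratio therefore describes these genes and not the spread of the whole list. It is a ratio of levels per kilobase and was described, not tested. Within subcomplexes the same ratio narrowed for those detailed below but not for all. In the loading factors it was 2.21 to 2.63 in EGFP 8-cell, 1.99 to 3.33 in p150DN and 3.73 to 4.00 in blastocyst libraries. In nucleotide supply it was 5.72 to 12.1, 6.60 to 8.78 and 11.4 to 12.6 in that order. In origin recognition, p150DN libraries (6.10 to 7.39) overlapped EGFP 8-cell libraries (6.82 to 10.4). The ratio was not taken for other genes.

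**Figure D1:**
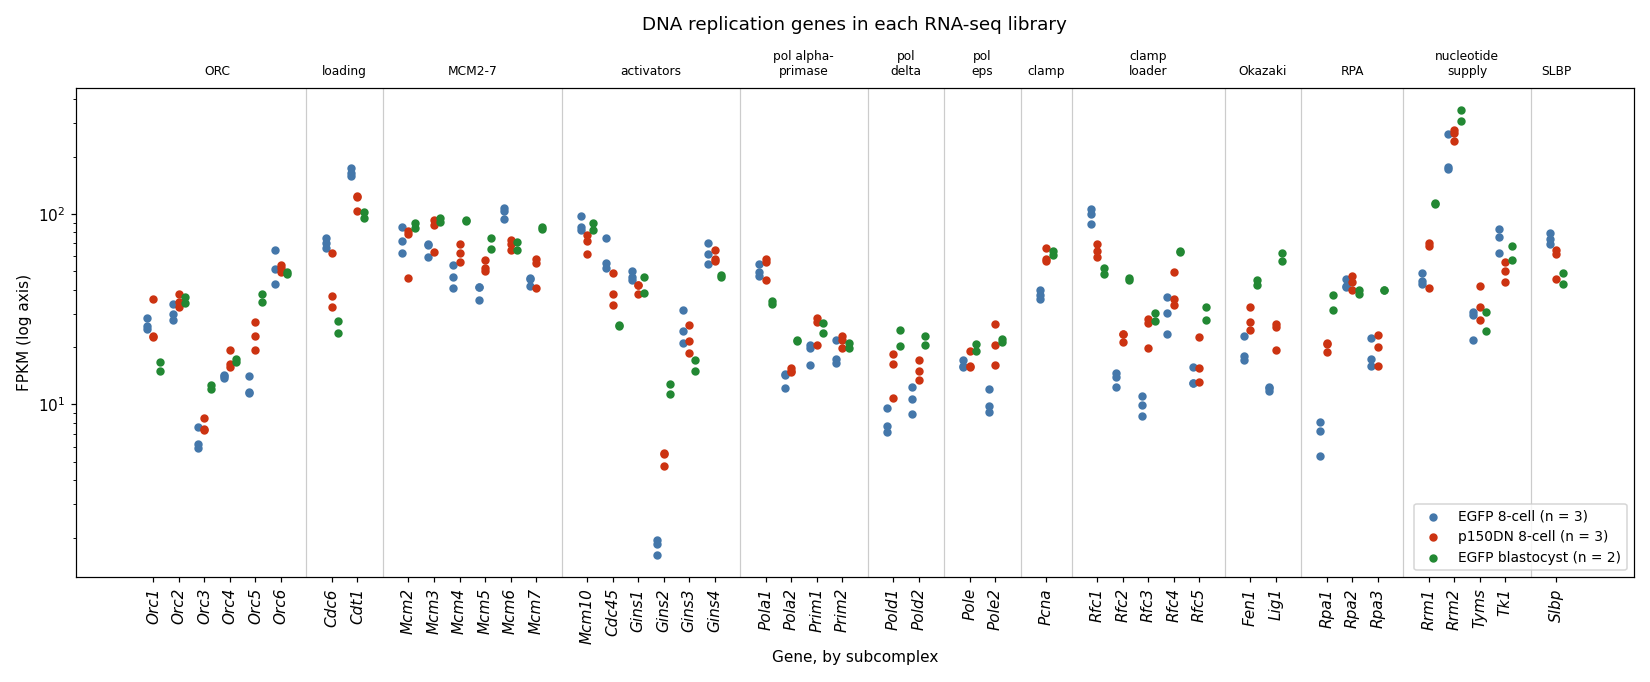
FPKM of the 44 genes (log axis) in each library, ordered by subcomplex, with 1 point per library for EGFP 8-cell embryos (blue, n = 3), p150DN 8-cell embryos (red, n = 3) and EGFP blastocysts (green, n = 2). Gins2 runs from 1.62 to 12.8 FPKM and Rrm2 from 172 to 351 FPKM.

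The first comparison, p150DN against EGFP at the 8-cell stage, concerns embryos with the dominant negative CAF-1 subunit. Genes for DNA synthesis were among the risers: the RPA subunit Rpa1, the GINS subunit Gins2, the clamp loader subunit Rfc3, the polymerase epsilon subunit Pole2 and the ligase Lig1 rose about 2- to 3-fold. Both loading factors, Cdc6 and Cdt1, fell, together with Mcm6, Cdc45, Rfc1 and Tk1. By limma on log2(FPKM + 1), with Benjamini-Hochberg adjusted p below 0.05 over all tested genes, 34.3% of the 11730 tested genes were called, 24.6% higher and 9.68% lower. Of the 44 members 17 (38.6%) were called, 11 (25%) higher and 6 (13.6%) lower, so their share was near that of all genes. The median difference was 0.21 on the log2 scale over members and 0.19 over all tested genes. Of the 17, 3 (Rpa1, Rfc3 and Gins2) differed by 1 or more on that scale. The share of all tested genes at that limit was not counted. The count of called members was 11 (25%) without EGFP replicate 1 and 10 (22.7%) without p150DN replicate 3, and the calls over all tested genes fell alike, to 22% and 20.4%. These are embryo lysates, so a change in the share of cells that hold a transcript and a change in its amount per cell cannot be told apart.

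Between blastocysts and EGFP 8-cell embryos, the same list showed the course of normal development. Most polymerase, clamp loader, RPA and lagging-strand genes were higher in blastocysts, led by Gins2 (6.68-fold), Rpa1 (4.99-fold) and Lig1 (4.90-fold). Lower were both loading factors, Orc1, Mcm6, Cdc45, Gins3, Gins4, Pola1, Rfc1 and Slbp. Across all 12199 tested genes 67.5% were called, 42.6% higher and 24.9% lower. Of the members 33 (75%) were called, 23 (52.3%) higher and 10 (22.7%) lower, with a median difference of 0.45 against 0.28 over all genes. The difference was 1 or more on the log2 scale for 15 of the 33, a limit at which all tested genes were again not counted. This comparison and the previous one share the EGFP 8-cell libraries, so their values are given side by side and no overlap between them is read as a result.

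The third comparison set p150DN 8-cell embryos directly against blastocysts. The p150DN embryos had lower levels of 14 members (31.8%), among them Lig1, Gins2, Rpa3, Rfc2 and Rrm1, and a higher level of 1 member (2.27%), Pola1. Over all 12648 tested genes 26.1% were called, 14.2% lower and 11.9% higher. The median difference was -0.22 over members and -0.05 over all genes. Calls in this comparison, over all genes as well as members, rested on having both blastocyst libraries. Without blastocyst replicate 1 they fell to 4.05% of all tested genes and 1 member, Lig1, and without blastocyst replicate 2 to 2.6% of all tested genes and 0 members. Without p150DN replicates 1, 2 and 3 in turn, 17, 8 and 7 members passed (38.6%, 18.2% and 15.9%), against 33.7%, 19.8% and 20.4% of all tested genes. Without the first and second blastocyst library the median difference was -0.19 and -0.23 over members, against -0.05 and -0.04 over all tested genes. This comparison shares its libraries with the other 2.

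**Figure D2:**
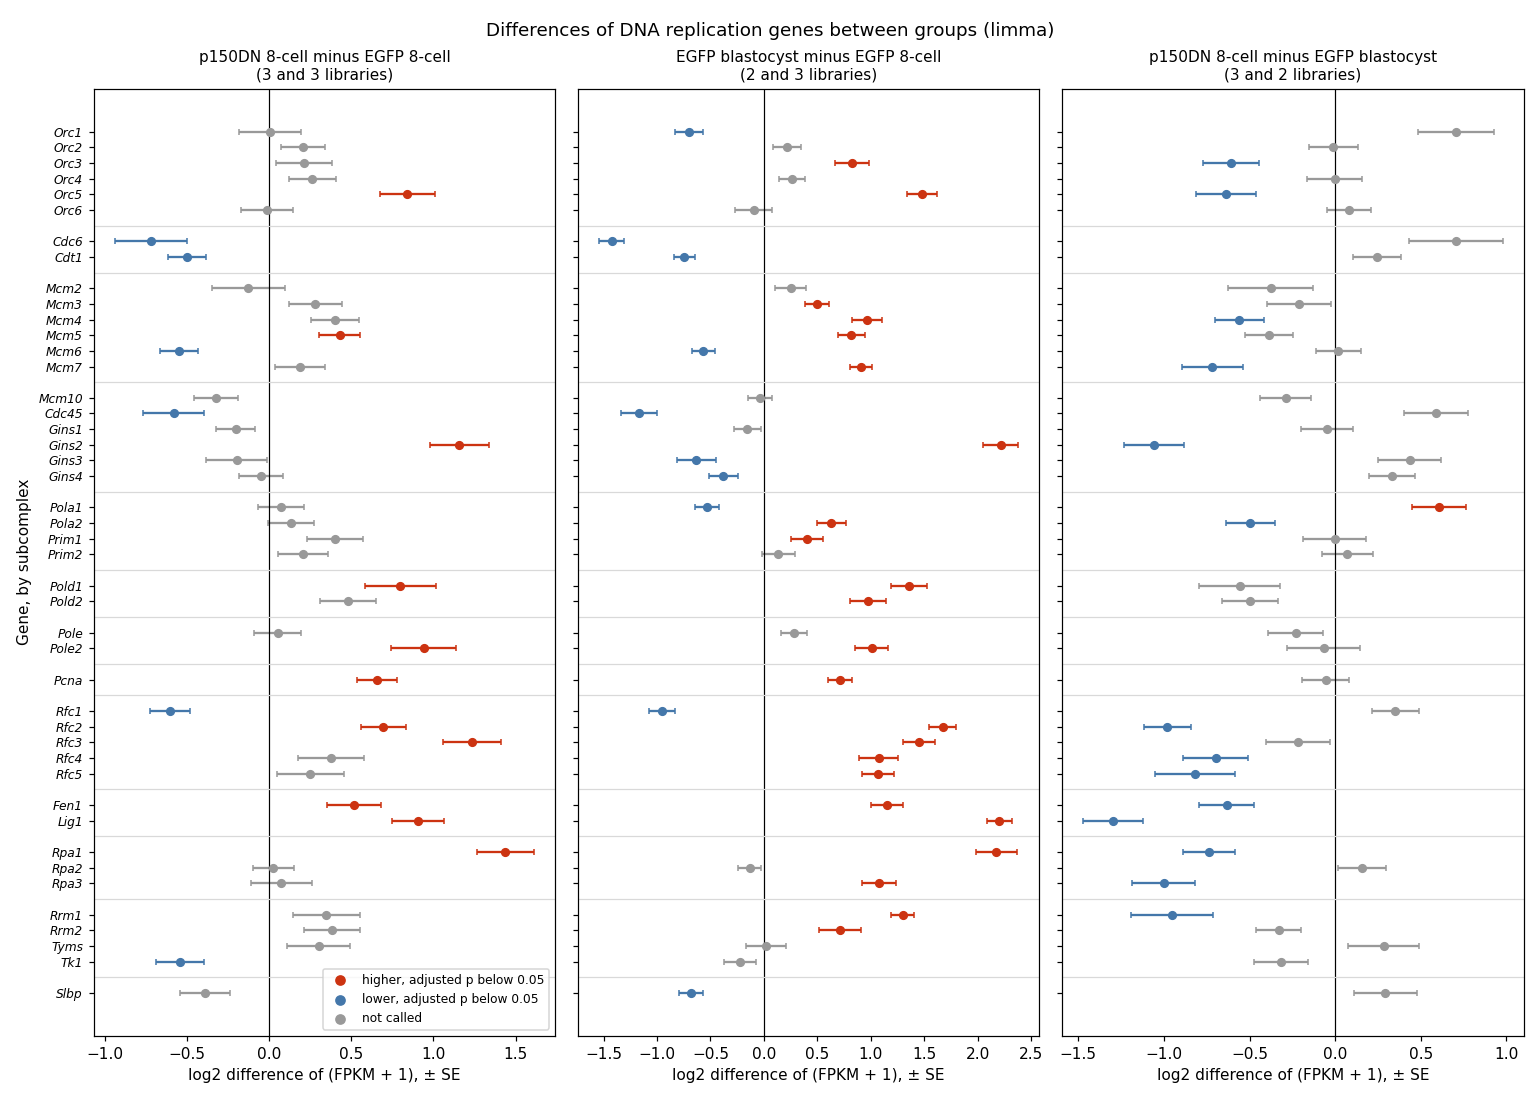
Difference in log2(FPKM + 1) with its standard error (limma) for each of the 44 genes in 3 comparisons, with red and blue points for genes called higher and lower at an adjusted p below 0.05 and grey for the others. Calls number 11 higher and 6 lower (left), 23 and 10 (middle) and 1 and 14 (right).

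Of the 6 origin recognition genes, 1 was called in p150DN embryos, against 34.3% of all tested genes. The helicase ring and the helicase activators, also of 6 genes, each had 1 called higher and 1 lower. Orc5, an ATP-binding subunit (chr5:22486480-22550338), stood at 11.6, 11.4 and 14.1 FPKM in EGFP 8-cell embryos, 26.9, 19.4 and 22.9 FPKM in p150DN 8-cell embryos and 34.4 and 37.8 FPKM in blastocysts. The 3 groups did not overlap. Its log2 difference from EGFP 8-cell embryos was 0.84 ± 0.17 (SE) with p150DN (adjusted p = 0.00581) and 1.48 ± 0.14 in blastocysts (adjusted p = 0.000146). Orc1, the largest subunit, stood at 24.9, 28.5 and 25.7 FPKM in EGFP 8-cell embryos and at 16.7 and 15.0 FPKM in blastocysts, a difference of -0.70 ± 0.13 (adjusted p = 0.00248). In p150DN embryos it was at 22.6, 35.6 and 22.9 FPKM, with replicate 2 above and the other two below every EGFP library, and did not pass (adjusted p = 0.980). Orc3 rose from 5.88, 6.19 and 7.58 to 12.0 and 12.6 FPKM in blastocysts (0.82 ± 0.16, adjusted p = 0.00335). Its p150DN levels of 8.47, 7.30 and 7.41 FPKM overlapped those of EGFP 8-cell embryos. Orc2, Orc4 and Orc6 passed in no comparison, with differences of -0.01 to 0.26 with p150DN and -0.10 to 0.27 in blastocysts.

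Both loading factors were lower in p150DN embryos and in blastocysts. Cdt1, which brings the helicase to the origin and is held in check by geminin (chr8:122568015-122573130), stood at 164, 159 and 174 FPKM in EGFP 8-cell embryos. It stood at 123, 125 and 104 FPKM with p150DN and at 94.7 and 102 FPKM in blastocysts. Both groups were below every EGFP 8-cell library. The differences from EGFP 8-cell embryos were -0.50 ± 0.12 (adjusted p = 0.0118) and -0.74 ± 0.10 (adjusted p = 0.000604). Cdc6, the ATPase that works with the origin complex (chr11:98907709-98923942), stood at 74.5, 70.2 and 66.1 FPKM in EGFP 8-cell embryos and 23.7 and 27.5 FPKM in blastocysts (-1.43 ± 0.12, adjusted p = 8.85e-05). With p150DN it was at 36.9, 62.5 and 32.5 FPKM, so replicate 2 lay near the EGFP libraries and the other two well below them (-0.72 ± 0.22, adjusted p = 0.0335). That call was lost when any of the EGFP libraries or p150DN replicate 1 or 3 was left out (adjusted p = 0.0605 to 0.117), and the difference was -1.0 (adjusted p = 0.00174) without p150DN replicate 2. For Cdt1 the call was lost without p150DN replicate 3 (adjusted p = 0.0509).

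The 6 subunits of the helicase ring, which assemble in equal numbers, had unequal transcript levels in EGFP 8-cell embryos and more even ones in the other groups. Mcm6 (chr1:128331575-128359705) was the most abundant of them in EGFP 8-cell embryos, at 104, 107 and 93.5 FPKM. It fell to 69.8, 64.8 and 72.7 FPKM with p150DN (-0.55 ± 0.12, adjusted p = 0.00737) and to 64.9 and 71.5 FPKM in blastocysts (-0.57 ± 0.11, adjusted p = 0.00331). No p150DN or blastocyst library reached an EGFP 8-cell library, and between p150DN embryos and blastocysts it differed by 0.02 ± 0.13 (adjusted p = 0.927). Mcm5, among the scarcest in EGFP 8-cell embryos at 41.5, 35.3 and 41.5 FPKM, was at 51.9, 50.4 and 57.6 FPKM with p150DN (0.43 ± 0.13, adjusted p = 0.0298). In blastocysts it was at 65.5 and 74.7 FPKM (0.82 ± 0.13, adjusted p = 0.00115). Mcm4 went from 46.7, 54.2 and 40.7 FPKM to 92.1 and 92.6 FPKM in blastocysts (0.96 ± 0.14, adjusted p = 0.000806). With p150DN its 69.4, 56.0 and 62.3 FPKM lay above every EGFP 8-cell library without passing (adjusted p = 0.0600). Mcm7 was at 41.9, 45.7 and 45.8 FPKM in EGFP 8-cell embryos and 82.8 and 85.4 FPKM in blastocysts (0.91 ± 0.10, adjusted p = 0.000309), and Mcm3 was higher by 0.49 ± 0.11 there (adjusted p = 0.00681). Mcm2 passed in no comparison, with 62.3, 85.2 and 72.5 FPKM in EGFP 8-cell, 78.6, 46.1 and 81.2 FPKM in p150DN and 83.8 and 89.6 FPKM in blastocyst libraries.

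The most abundant of the 6 helicase transcripts exceeded the scarcest by 2.51, 3.03 and 2.30 times in the EGFP 8-cell libraries. The same ratio was 1.80, 1.59 and 1.57 in p150DN 8-cell embryos and 1.47 and 1.30 in blastocysts. The 3 groups did not overlap in it. All 6 were lowest in p150DN replicate 2 among the 3 p150DN libraries. Without that library Mcm3 (adjusted p = 0.0291) and Mcm4 (adjusted p = 0.0441) also passed as higher with p150DN. Mcm4 also passed without EGFP replicate 2 (adjusted p = 0.0421), as did Mcm2 in blastocysts (adjusted p = 0.0327). The Mcm5 call with p150DN was lost when any EGFP library or p150DN replicate 1 or 3 was left out (adjusted p = 0.0533 to 0.116), and that of Mcm3 in blastocysts without blastocyst replicate 1 (adjusted p = 0.0548).

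**Figure D3:**
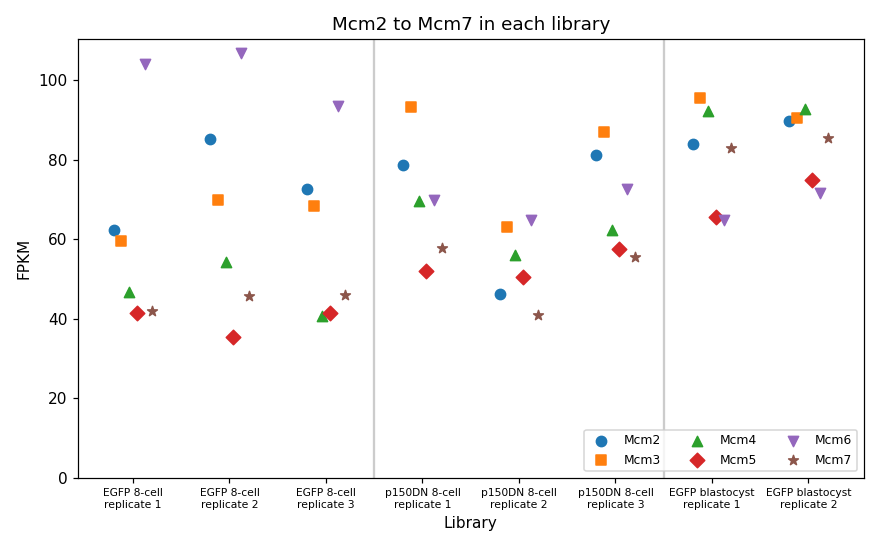
FPKM of Mcm2 to Mcm7 in each of the 8 libraries (linear axis from 0, 1 symbol per gene). Mcm6 lies above the other 5 in EGFP 8-cell libraries and among or below them in the p150DN and blastocyst libraries other than p150DN replicate 2, where it is the highest.

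The helicase activators split by gene. Gins2, a subunit of the GINS tetramer (chr8:120581266-120589075), was the scarcest member at 1.94, 1.62 and 1.84 FPKM in EGFP 8-cell embryos. Its levels were 4.73, 5.47 and 5.58 FPKM with p150DN and 11.3 and 12.8 FPKM in blastocysts, with no overlap between groups. The log2 differences were 1.16 ± 0.18 (adjusted p = 0.00195) and 2.22 ± 0.16 (adjusted p = 5.85e-05), and the p150DN minus blastocyst difference was -1.06 ± 0.18 (adjusted p = 0.00915). The other 3 subunits of the tetramer were called higher in neither group. Gins1 stood at 37.8 to 50.2 FPKM over the 8 libraries and passed in no comparison. Gins3 went from 24.3, 31.5 and 21.1 FPKM to 14.9 and 17.0 FPKM in blastocysts (-0.63 ± 0.18, adjusted p = 0.0184), and Gins4 was also lower there (-0.38 ± 0.13, adjusted p = 0.0380). With p150DN Gins3 and Gins4 overlapped the EGFP libraries and did not pass (adjusted p = 0.432 and 0.804). Cdc45, which binds the ring together with GINS (chr16:18780447-18811972), stood at 55.2, 74.3 and 51.9 FPKM in EGFP 8-cell embryos. It stood at 33.2, 49.2 and 37.9 FPKM with p150DN (-0.58 ± 0.19, adjusted p = 0.0398) and at 25.7 and 26.2 FPKM in blastocysts (-1.17 ± 0.17, adjusted p = 0.000787). Mcm10, an activator at the start of unwinding, did not pass at 97.6, 85.4 and 82.3 FPKM in EGFP 8-cell and 72.1, 61.8 and 77.8 FPKM in p150DN embryos (adjusted p = 0.0870). The Cdc45 call with p150DN was lost without EGFP replicate 1 or 2 or p150DN replicate 1 or 3 (adjusted p = 0.0754 to 0.123). In blastocysts the Gins3 call was lost without blastocyst replicate 1 (adjusted p = 0.104) and the Gins4 call without EGFP replicate 1 or 3 or either blastocyst library (adjusted p = 0.0666 to 0.142).

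Among polymerases, the subunits of polymerase alpha and primase passed in 0 of 4 cases with p150DN (3 of 4 in blastocysts), while 1 of 2 passed for delta and 1 of 2 for epsilon. Prim1 was the only one of those 4 with an unadjusted p below 0.05 (0.0428). Pole2, the accessory subunit of polymerase epsilon (chr12:69201773-69228205), stood at 9.80, 12.0 and 9.15 FPKM in EGFP 8-cell embryos and 26.4, 16.2 and 20.5 FPKM with p150DN. In blastocysts it was at 21.2 and 22.1 FPKM, so the p150DN libraries lay on both sides of the blastocysts. The differences from EGFP 8-cell embryos were 0.94 ± 0.20 (adjusted p = 0.00764) and 1.01 ± 0.15 (adjusted p = 0.00110). Pole, the catalytic subunit, stayed between 15.7 and 20.9 FPKM in all 8 libraries and passed in no comparison. Pold1, the catalytic subunit of polymerase delta (chr7:44532744-44548815), was at 7.74, 7.20 and 9.53 FPKM in EGFP 8-cell embryos, 16.3, 10.8 and 18.5 FPKM with p150DN (0.80 ± 0.21, adjusted p = 0.020) and 24.5 and 20.3 FPKM in blastocysts (1.36 ± 0.17, adjusted p = 0.000436). Its accessory subunit Pold2 was higher in blastocysts (0.98 ± 0.17, adjusted p = 0.00178) and did not pass with p150DN (0.48 ± 0.17, adjusted p = 0.0585).

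Pola1, the catalytic subunit of polymerase alpha on the X chromosome, was the 1 member called higher in p150DN embryos than in blastocysts. It stood at 49.3, 54.4 and 47.1 FPKM in EGFP 8-cell, 45.1, 58.2 and 56.1 FPKM in p150DN and 33.7 and 35.0 FPKM in blastocyst libraries. Blastocysts were below both 8-cell groups, with a difference of -0.53 ± 0.11 from EGFP 8-cell embryos (adjusted p = 0.00492) and a p150DN minus blastocyst difference of 0.61 ± 0.16 (adjusted p = 0.0321). The latter call was lost in 8 of 15 alternatives, among them leaving out p150DN replicate 2 or 3 or either blastocyst library (adjusted p = 0.0573 to 0.174). Orc1 (0.71 ± 0.22), Cdc6 (0.70 ± 0.27) and Cdc45 (0.59 ± 0.19) also had p150DN levels above both blastocyst libraries without passing (adjusted p = 0.0548, 0.0931 and 0.0558). They were called higher in 5, 2 and 4 of the 15 alternatives, Orc1 and Cdc45 among others without p150DN replicate 1 (adjusted p = 0.0430 and 0.0278). Cdt1, Gins3, Gins4 and Rfc1 likewise lay above both blastocyst libraries and passed in no alternative. Mcm2, Mcm5, Mcm10, Pold1, Pold2, Rrm2 and Tk1 lay below both blastocyst libraries without being called. Such separation, in either direction, was not counted over all tested genes and is not read as a result. Pola2, the partner of Pola1, moved the other way, from 12.2, 14.3 and 14.4 to 21.7 and 21.6 FPKM in blastocysts (0.63 ± 0.13, adjusted p = 0.00478). Prim1, the catalytic primase subunit, was called in blastocysts at 0.40 ± 0.15 (adjusted p = 0.0445) and Prim2 was not (0.13 ± 0.15). The Prim1 call was lost without EGFP replicate 1 or 3 or either blastocyst library (adjusted p = 0.0527 to 0.232). With p150DN, Prim1 passed without p150DN replicate 2 (0.54, adjusted p = 0.0317). The Pold1 call with p150DN was lost without EGFP replicate 1 or 2 or p150DN replicate 1 or 3 (adjusted p = 0.0537 to 0.0811).

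Of the sliding clamp and its 5 loader subunits, Pcna, Rfc2 and Rfc3 were called higher with p150DN, and those 3 with Rfc4 and Rfc5 in blastocysts. Rfc1 was called lower in both. Pcna (chr2:132249286-132253180) stood at 40.0, 37.4 and 35.7 FPKM in EGFP 8-cell embryos, 56.3, 65.9 and 57.9 FPKM with p150DN and 60.6 and 64.0 FPKM in blastocysts. The p150DN and blastocyst libraries overlapped each other and not the EGFP 8-cell libraries. The differences from the latter were 0.66 ± 0.12 (adjusted p = 0.00452) and 0.71 ± 0.11 (adjusted p = 0.00109), and p150DN embryos and blastocysts differed by -0.05 ± 0.14 (adjusted p = 0.787). Rfc3 (chr5:151642817-151651208) rose from 9.92, 8.67 and 11.1 FPKM to 26.6, 19.7 and 28.0 FPKM with p150DN (2.5-fold, 1.23 ± 0.18, adjusted p = 0.00147), and was at 27.2 and 30.2 FPKM in blastocysts (1.45 ± 0.15, adjusted p = 0.000189). Rfc2 stood at 14.6, 12.3 and 14 FPKM, at 23.4, 21.3 and 23.3 FPKM with p150DN (0.69 ± 0.14, adjusted p = 0.00588) and at 46.3 and 45.1 FPKM in blastocysts (1.67 ± 0.13, adjusted p = 6.33e-05). Rfc4 and Rfc5 were about 2-fold higher in blastocysts (1.07 ± 0.18 and 1.07 ± 0.15, adjusted p = 0.00184 and 0.000699). They overlapped the EGFP 8-cell libraries with p150DN and did not pass (0.38 ± 0.20 and 0.25 ± 0.21).

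Rfc1, the large subunit that distinguishes this loader from its relatives (chr5:65261852-65338617), went the other way. It stood at 106, 88.2 and 100.4 FPKM in EGFP 8-cell embryos, 69.9, 59.6 and 63.5 FPKM with p150DN and 48.3 and 52.0 FPKM in blastocysts, with no overlap among the 3 groups. The differences were -0.60 ± 0.12 (adjusted p = 0.00689) and -0.95 ± 0.12 (adjusted p = 0.000428). Within the 5-subunit loader, the most abundant transcript exceeded the scarcest by 10.7, 10.2 and 9.08 times in EGFP 8-cell libraries. The ratio was 3.1, 4.56 and 4.08 with p150DN and 2.35 and 2.10 in blastocysts.

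Fen1 and Lig1, the flap endonuclease and the ligase that finish lagging-strand pieces, were both higher. Lig1 (chr7:13277175-13311426) was at 11.8, 12.3 and 12.2 FPKM in EGFP 8-cell embryos, 25.6, 19.4 and 26.4 FPKM with p150DN and 56.3 and 62.6 FPKM in blastocysts. No group overlapped another, and the p150DN libraries lay nearer to the EGFP 8-cell than to the blastocyst libraries in FPKM. The differences from EGFP 8-cell embryos were 0.90 ± 0.16 (adjusted p = 0.00338) and 2.20 ± 0.12 (adjusted p = 2.34e-05), and that between p150DN embryos and blastocysts was -1.30 ± 0.18 (adjusted p = 0.00605). Fen1 was at 17.8, 17.2 and 22.9 FPKM, then 32.4, 24.7 and 27.0 FPKM with p150DN (0.52 ± 0.16, adjusted p = 0.0386) and 42.5 and 44.9 FPKM in blastocysts (1.15 ± 0.15, adjusted p = 0.000556). The Fen1 call with p150DN was lost without EGFP replicate 1 or 2 or p150DN replicate 1 or 3 (adjusted p = 0.0902 to 0.129).

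RPA is a trimer, and its subunits differed in level most in EGFP 8-cell embryos. Rpa1, the large subunit that makes most contacts with DNA (chr11:75300259-75348454), was the member with the largest difference between p150DN and EGFP 8-cell embryos. It stood at 5.37, 7.21 and 8.09 FPKM in EGFP 8-cell embryos, 18.8, 20.7 and 21.1 FPKM with p150DN and 31.2 and 37.5 FPKM in blastocysts, with no overlap. The fold was 2.93 with p150DN (1.44 ± 0.17, adjusted p = 0.000747) and 4.99 in blastocysts (2.18 ± 0.19, adjusted p = 0.000102). Rpa2, the middle subunit, stayed at 37.9 to 47.1 FPKM in all 8 libraries and passed in no comparison. Rpa3, the small subunit, was at 17.4, 22.4 and 16.0 FPKM in EGFP 8-cell, 19.9, 15.9 and 23.1 FPKM in p150DN and 39.7 and 39.9 FPKM in blastocyst libraries. It was higher in blastocysts (1.07 ± 0.16, adjusted p = 0.000982) and did not pass with p150DN (0.07 ± 0.19). The direct p150DN minus blastocyst difference was -1.0 ± 0.18 (adjusted p = 0.0117). The most abundant of the 3 RPA transcripts exceeded the scarcest by 7.77, 6.31 and 5.11 times in EGFP 8-cell, 2.35, 2.97 and 1.89 times in p150DN and 1.28 and 1.06 times in blastocyst libraries.

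The nucleotide supply genes differed by enzyme. Rrm1, the catalytic subunit of ribonucleotide reductase (chr7:102441695-102469771), stood at 44.7, 42.7 and 49.0 FPKM in EGFP 8-cell embryos and 114 and 112 FPKM in blastocysts (1.30 ± 0.11, adjusted p = 8.43e-05). With p150DN it was at 70.4, 40.8 and 67.8 FPKM: replicates 1 and 3 were above and replicate 2 below every EGFP 8-cell library, and it did not pass (adjusted p = 0.214). Without p150DN replicate 2 the difference was 0.60 (adjusted p = 0.00977). Rrm2 (chr12:24708254-24714146) was at 172, 263 and 176 FPKM in EGFP 8-cell, 277, 243 and 264 FPKM in p150DN and 307 and 351 FPKM in blastocyst libraries. EGFP replicate 2 reached the level of the p150DN libraries, and the gene passed in blastocysts (0.71 ± 0.20, adjusted p = 0.0145) but not with p150DN (0.38 ± 0.17, adjusted p = 0.110). It passed with p150DN when EGFP replicate 2 was left out (0.58, adjusted p = 0.0142), and its blastocyst call was lost without blastocyst replicate 2 (adjusted p = 0.0844). Tk1, the thymidine kinase of the salvage pathway (chr11:117815519-117826087), fell from 75.5, 62.3 and 83.1 to 50.4, 55.6 and 44.1 FPKM with p150DN (-0.54 ± 0.15, adjusted p = 0.0212). In blastocysts it was at 67.8 and 57.3 FPKM and did not pass (adjusted p = 0.218). The Tk1 call with p150DN was lost without EGFP replicate 1 or 3 or p150DN replicate 3 (adjusted p = 0.0740 to 0.0854), and Tk1 passed as lower in blastocysts without EGFP replicate 2 (adjusted p = 0.050). Tyms, thymidylate synthase, stood at 21.8 to 42.0 FPKM over the 8 libraries and passed in no comparison.

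Slbp, which binds the stem-loop of replication-dependent histone mRNAs (chr5:33640055-33652574), stood at 79.1, 74.2 and 69.9 FPKM in EGFP 8-cell embryos and 42.9 and 49.2 FPKM in blastocysts (-0.68 ± 0.12, adjusted p = 0.00173). With p150DN its 45.5, 64.3 and 61.5 FPKM lay below every EGFP 8-cell library without passing (-0.39 ± 0.15, adjusted p = 0.0763). Without p150DN replicate 2 it passed (-0.48, adjusted p = 0.0460).

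The p150DN libraries differed among themselves in this machinery. Each departed from its position over all genes, replicate 3 in how often it was the highest. Replicate 1 was the highest of the 3 for 20 of the 44 members (45.5%), against 27.9% of all tested genes, and the lowest for 11 (25.0%, against 44.2%). Replicate 2 was the lowest of the 3 p150DN libraries for 23 of the 44 members (52.3%), against 34.0% of all tested genes, and the highest for 14 (31.8%, against 36.5%). Replicate 3 was highest for 10 members (22.7%, against 35.6%) and lowest for 10 (22.7%, against 21.8%). The position of replicate 2 varied by subcomplex: it was lowest for 6 of 6 helicase subunits, 4 of 5 clamp loader subunits, both lagging-strand joining genes, both polymerase epsilon genes and 3 of 4 nucleotide supply genes. It was highest for both loading factors and for 3 of 6 origin recognition and 3 of 6 activator genes. In replicate 2 inner cell mass markers summed to 91.8 FPKM, against 141 and 153 FPKM in replicates 1 and 3. That gap was in Nanog (35.4 FPKM against 94.7 and 99.0 FPKM), whereas Klf4 was highest in replicate 2 (50.6 FPKM against 41.7 and 44.6 FPKM) and Sox2 (2.14 FPKM) and Fgf4 (3.74 FPKM) lay between the other two. The trophectoderm sum of replicate 2, 304 FPKM, lay between theirs (250 and 452 FPKM). The part of these marker levels in the pattern was not tested. Without replicate 2, 15 members were called higher and 7 lower with p150DN (50% in all), against 20.9% higher and 11.5% lower over all tested genes (32.4% in all).

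**Figure D4:**
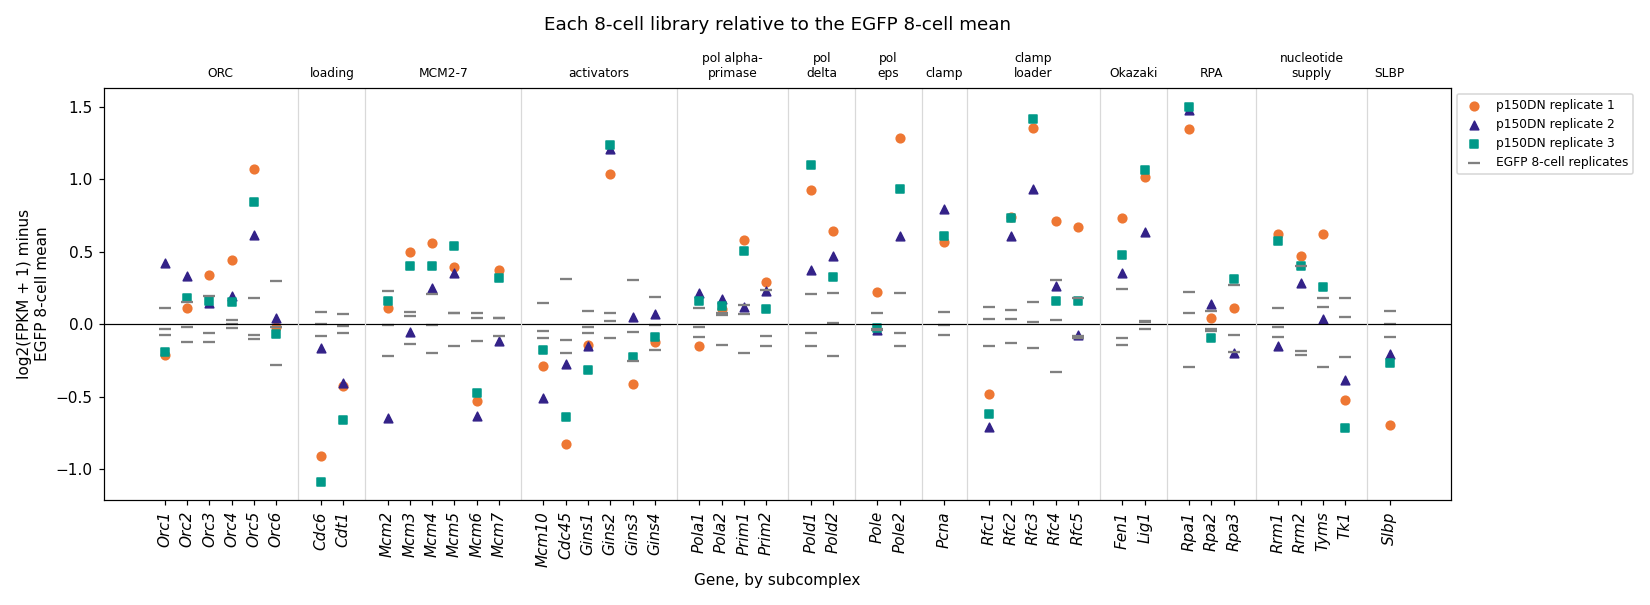
Each p150DN 8-cell library (orange, violet and green symbols for replicates 1, 2 and 3) and each EGFP 8-cell library (grey dashes) as log2(FPKM + 1) minus the mean of the 3 EGFP 8-cell libraries, for the 44 genes by subcomplex. Replicate 2 is the lowest symbol for all of Mcm2 to Mcm7 and the highest for Cdc6 and Cdt1, while Rpa1 and Gins2 are at similar heights in all 3.

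The direction of these calls depended in part on how libraries were scaled. Scaling by the median of ratios moved the median of all tested genes from 0.19 to -0.06 for p150DN against EGFP 8-cell embryos, and quantile normalization moved it to -0.03. The share of calls in the higher direction went from 71.8% over all genes to 43.9% and 49.3%. Members then split into 6 higher and 9 lower, or 10 higher and 4 lower. Under the median of ratios Pcna, Rfc2, Pold1, Mcm5 and Fen1 lost their calls (adjusted p = 0.0749, 0.0754, 0.0946, 0.502 and 0.381), and Mcm10, Gins1 and Slbp passed as lower (adjusted p = 0.0172, 0.0343 and 0.00753). Quantile normalization ended the calls of Pold1, Cdc6, Cdc45 and Fen1 (adjusted p = 0.0879, 0.0550, 0.0609 and 0.0922) and added Mcm4 as higher (adjusted p = 0.0424). Rpa1, Rfc3, Gins2, Pole2, Lig1 and Orc5 were higher and Mcm6 lower under both scalings and in every other alternative in which they were tested (Gins2 was under the filter of 5 FPKM). Between blastocysts and EGFP 8-cell embryos the median of all genes moved from 0.28 to 0.09 and 0.03 and the higher share from 63.1% to 53.3% and 51%, and members split 20 to 13 and 22 to 10. The median of ratios there ended the calls of Mcm3, Prim1 and Rrm2 (adjusted p = 0.0632, 0.309 and 0.0538) and added Gins1, Rpa2 and Tk1 as lower (adjusted p = 0.0284, 0.0223 and 0.0421), and quantile normalization ended that of Prim1 (adjusted p = 0.192).

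For 15 of the 44 members the gene's span overlaps that of another gene in the RefSeq table, and whether fragments were counted by strand is not given in the sources used here. Their values are uncertain for that reason. They include 9 of the 17 members called with p150DN, 13 of the 33 called in blastocysts and 8 of the 15 called between p150DN embryos and blastocysts. For 4 of them a neighbour with a mean of at least 5 FPKM in every group differed in the same direction wherever the member was called. Afmid, beside Tk1, had mean levels of 24.5 FPKM in EGFP 8-cell, 10.8 FPKM in p150DN and 6.38 FPKM in blastocyst libraries. Tmem258, beside Fen1, stood at 14.7, 22.1 and 32.7 FPKM in that order, Eif4a2, beside Rfc4, at 102, 159 and 175 FPKM, and Rars2, beside Orc3, at 6.55, 10.003 and 21.7 FPKM. Smyd4, beside Rpa1, was low in all groups (3.07, 3.42 and 1.79 FPKM), as was Zswim9 beside Lig1 (1.24, 1.25 and 0.66 FPKM). Gse1, beside Gins2, stood at 17.6, 15.1 and 7.20 FPKM, so it was lower in blastocysts where Gins2 was higher.

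A further 36 replication genes outside the 44, such as kinases of origin firing, fork protection factors and ribonuclease H subunits, showed calls in both directions. With p150DN 5 (13.9%) were higher and 8 (22.2%) lower, against 24.6% and 9.68% of all tested genes, and the 36.1% called in all was near the 34.3% of all genes. Their median difference was 0.02. The count of 13 was 5 to 7 when any EGFP library or p150DN replicate 1 or 3 was left out. Rnaseh2c and Rnaseh2b, subunits of the enzyme that removes ribonucleotides from DNA, and Dut, which clears dUTP, were higher by 0.73 ± 0.19, 0.67 ± 0.21 and 0.60 ± 0.18 (adjusted p = 0.0182, 0.0345 and 0.0337). Lower were Ticrr, needed to fire origins (-0.80 ± 0.16, adjusted p = 0.00635), Rrm2b, the alternative small subunit of ribonucleotide reductase (-0.79 ± 0.21, adjusted p = 0.0193), and the polymerase delta subunit Pold3 (-0.63 ± 0.15, adjusted p = 0.0132). Leaving out single libraries ended the calls of Rnaseh2c (without EGFP replicate 3 or p150DN replicate 1, adjusted p = 0.0554 and 0.0537) and Rrm2b (without EGFP replicate 1 or 3 or p150DN replicate 3, adjusted p = 0.0778, 0.0632 and 0.0577). It ended those of Rnaseh2b and Dut without any EGFP library or p150DN replicate 1 or 3 (adjusted p = 0.0560 to 0.106 and 0.0610 to 0.102). Scaling by the median of ratios ended the calls of Rnaseh2c, Rnaseh2b and Dut (adjusted p = 0.144, 0.253 and 0.289). In blastocysts 14 (38.9%) were higher and 15 (41.7%) lower, against 42.6% and 24.9% of all tested genes, with a median of 0.16. The 29 calls were 18 and 19 without blastocyst replicates 1 and 2. Mcm8, a helicase relative (1.47 ± 0.17, adjusted p = 0.000309), Dut (1.23 ± 0.13, adjusted p = 0.000255) and Rnaseh2a (1.11 ± 0.15, adjusted p = 0.000562) led the higher ones with a mean of at least 5 FPKM over the compared libraries. Pold3 (-1.28 ± 0.11, adjusted p = 9.49e-05), Samhd1, which degrades deoxynucleotides (-1.24 ± 0.30, adjusted p = 0.00892), and the topoisomerase Top1 (-1.07 ± 0.11, adjusted p = 0.000194) led the lower ones at the same limit. Below that limit Pold4, a small polymerase delta subunit, went from a mean of 0.73 to 4.52 FPKM (1.68 ± 0.18, adjusted p = 0.000238), a larger difference than any of these; it was named after its values were seen.

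Between p150DN embryos and blastocysts 3 of these 36 were higher and 4 lower (19.4% in all, against 26.1% of all tested genes), and the 7 calls were 4 and 2 without p150DN replicates 2 and 3 and 1 when either blastocyst library was left out. Top1 stood at a mean of 211 FPKM with p150DN and 104 FPKM in blastocysts (1.01 ± 0.12, adjusted p = 0.00393), which held in all alternatives. Pold3 (0.65 ± 0.19) and Pole4 (0.61 ± 0.19) were also higher, and Mcm8 (-0.91 ± 0.19), Dtymk (-0.69 ± 0.18) and Timeless (-0.52 ± 0.15) lower, with adjusted p of 0.0158 to 0.0479. None of these 5 passed without blastocyst replicate 1 (adjusted p = 0.0816 to 0.273) or replicate 2 (adjusted p = 0.141 to 0.189). Several of them also lost their calls without single p150DN libraries: Pold3 without replicate 1 or 3 (adjusted p = 0.0544 and 0.0791), Pole4 without replicate 2 or 3 (0.0788 and 0.0723), Dtymk without replicate 3 (0.0575) and Timeless without replicate 1, 2 or 3 (0.0522, 0.0637 and 0.0933).

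Of 26 regulators of S phase genes, such as E2F factors, the DREAM complex and the cyclins that drive S phase, 25 were tested with p150DN, of which 4 (16%) were higher and 4 (16%) lower, with a median of 0.18. The 32% called in all was near the 34.3% of all tested genes, and 5 of these 25 were called without EGFP replicate 1 and 5 without p150DN replicate 3. Lin37, a DREAM subunit, rose from a mean of 6.45 to 20.9 FPKM (1.54 ± 0.20, adjusted p = 0.000985) and the repressive E2F family member E2f6 from 7.67 to 19.0 FPKM (1.21 ± 0.16, adjusted p = 0.00116). Mybl2 rose by 0.49 ± 0.12 (adjusted p = 0.0158), a call that scaling by the median of ratios ended (adjusted p = 0.370). These had a mean of at least 5 FPKM over the compared libraries. Below that limit E2f7 rose from 3.01 to 6.16 FPKM (0.87 ± 0.22, adjusted p = 0.0166), and it was named after its values were seen. Cdk2, the kinase partner of cyclins E and A, fell from 78.3 to 36.4 FPKM (-1.13 ± 0.23, adjusted p = 0.00672), Lin52 from 8.79 to 4.59 FPKM (-0.82 ± 0.25, adjusted p = 0.0310) and the activator E2f1 from 11.7 to 6.56 FPKM (-0.76 ± 0.19, adjusted p = 0.0142). The E2f1 call was lost without EGFP replicate 1 (adjusted p = 0.0597). That of Mybl2 was lost without EGFP replicate 1 or 2 or p150DN replicate 3 (adjusted p = 0.0507 to 0.0684), and that of Lin52 without EGFP replicate 1 or 2 or p150DN replicate 1 or 3 (adjusted p = 0.0609 to 0.121). In blastocysts 9 of 26 were higher and 7 lower (61.5% in all, against 67.5% of all tested genes), with a median of 0.12. E2f8, an atypical repressor, rose from 2.00 to 10.9 FPKM (2.03 ± 0.26, adjusted p = 0.000536), Lin37 by 1.79 ± 0.15 (adjusted p = 9.21e-05) and E2f6 by 1.40 ± 0.18 (adjusted p = 0.000553). Lin52 (-1.54 ± 0.22, adjusted p = 0.000861), Skp2, a ubiquitin ligase subunit that marks Cdt1 for destruction (-1.31 ± 0.18, adjusted p = 0.000703), and cyclin E, Ccne1 (-1.23 ± 0.18, adjusted p = 0.000821), were lower.

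Against blastocysts, p150DN embryos had 3 of the 26 regulators higher and 1 lower (15.4% in all, against 26.1% of all tested genes), while 7 were called without p150DN replicate 1. Ccne1 stood at 142 and 67.4 FPKM (1.06 ± 0.21, adjusted p = 0.0149), Skp2 at 28.5 and 18.1 FPKM (0.63 ± 0.14, adjusted p = 0.0203), Ccna2 at 172 and 113 FPKM (0.59 ± 0.14, adjusted p = 0.0261) and E2f8 at 3.95 and 10.9 FPKM (-1.37 ± 0.35, adjusted p = 0.0312). All 4 lost their calls without blastocyst replicate 2 (adjusted p = 0.117 to 0.153), and all but Ccne1 without blastocyst replicate 1 (adjusted p = 0.141 to 0.172). E2f8 also lost its call without p150DN replicate 1 or 2 (adjusted p = 0.0558 and 0.0697).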

How the data were processed

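RNA from 8-cell embryos and blastocysts was sequenced after a stranded SMART-seq preparation, per the labels' protocols. The submitters' processing notes name Trim Galore, HISAT2, Bowtie2, SAMtools, featureCounts and the build mm10; the annotation and whether counting used strand were not given in the sources used here. The authors deposited FPKM per gene, per the file headers, in 1 column for each library. Columns that name the 8-cell stage but no treatment were read as EGFP 8-cell, the only other 8-cell RNA-seq group. FPKM shows shares of RNA, not amounts per embryo. Fragments were recovered as whole numbers for 99.99% of genes above 0, within 0.02 fragments. Log2 values of replicates correlated with r between 0.977 and 0.992, and replicates differed beyond counting noise.

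R 4.3.3 with limma 3.58.1 (lmFit and trended eBayes, two-sided, checked on simulated data) was used on log2(FPKM + 1) of the compared groups, on genes of at least 1 FPKM in 3 libraries (2 with blastocysts); a pseudocount of 1 understates changes of low genes. No count test was run. Members and lists were chosen with earlier results of these data known. All 44 members are named; of the other lists, called genes of at least 5 FPKM mean, at most 3 rises and 3 falls each. Alternatives varied pseudocount, filter, scaling, trend, fitted groups, replicate block and libraries. The other 65 samples were not used here.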

Additional observations from a re-analysis of the deposited data

How the results depend on the processing

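Between blastocysts and EGFP 8-cell embryos 33 members (75%) were called in the reported fit, against 67.5% of all tested genes. Leaving out 1 EGFP 8-cell library gave 31 to 35 members (70.5% to 79.5%), against 62% to 68.2% of all tested genes. Of the 33 genes, 28 were called under every alternative tried. For p150DN against EGFP 8-cell embryos, 7 of 17 were called under every alternative in which they were tested. Leaving out 1 library there gave 10 to 22 members in all (22.7% to 50%), 8 to 15 higher and 2 to 7 lower. The same fits called 20.4% to 32.4% of all tested genes. The median of ratios gave 6 members higher. In that comparison further replication genes numbered 5 to 11 and regulators 5 to 9 without 1 library, further genes 7 without a filter on low values, and, with p150DN replicates 2 and 3 both left out, further genes 7 and regulators 5. Between blastocysts and EGFP 8-cell embryos, further genes numbered 18 to 28 without 1 library.

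For p150DN embryos against blastocysts, 0 of 15 members were called under every alternative. Without 1 library 0 to 17 members were called (0 to 3 higher, 0 to 14 lower), 1 to 10 further genes and 0 to 7 regulators. With no filter on low values 5 members were called (0 higher, 5 lower), 2 further genes and 2 regulators; with no trend 9 members (0 higher, 9 lower) and 3 further genes; with p150DN replicates 2 and 3 both left out 7 members (0 higher, 7 lower) and 3 further genes. Higher members numbered 3 with a filter of 5 FPKM, 3 with quantile normalization and 4 with all 3 groups in 1 fit, the last also giving 11 further genes and 7 regulators. With the replicate block 2 members were higher and 9 lower. Calls over all tested genes moved as well, from 26.1% in the reported fit to 6.73% with no filter and 23.6% with no trend. They were 33.7% with a filter of 5 FPKM, 33.1% with all 3 groups in 1 fit and 24.3% with the replicate block. Without 1 p150DN library they were 19.8% to 33.7%. The cause of these shifts was not tested. No called difference changed sign. Same-numbered libraries deviated together with correlations of 0.04 to 0.09 between EGFP and p150DN 8-cell embryos and of -0.07 to -0.03 between blastocysts and the others, so the numbers were not taken as pairs; the replicate block called the same 17 members with p150DN and 31 in blastocysts. A lone library left in a group was assumed to vary like the other group. Depth limits Gins2 most, which rested on 34 fragments in its lowest library.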
